A study of Mus musculus with 108 samples.

Results

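The 7 sirtuin genes (Sirt1 to Sirt7) and 3 genes of NAD metabolism (Nampt, Nmnat1 and Parp1) were examined in chromatin state maps of mouse liver. They were listed by name, with earlier results of these data known, and are 10 of the 26089 genes with a curated RefSeq transcript on the mapped chromosomes. For each gene, the state was read in the 200 bp bin that holds the transcription start site (TSS), in the 21 bins within 2 kb of it, in the gene body and in 50 kb on each side of the gene. The livers came from C57BL/6 female mice, had been formalin-fixed and embedded in paraffin, and were profiled by ChIP-seq for H3K4me3, H3K27me3, H3K27ac and H3K4me1 in 108 libraries. SD 3m comprised mice of 3 months on standard diet (30 libraries), SD 12m mice of 12 months on standard diet (29 libraries), and CR 12m mice of 12 months on 30% caloric restriction (29 libraries). A further group, SD 6m (20 libraries), was not analysed here. The authors merged the libraries of a group before assigning states, so each group has 1 map, the spread between mice is not known from it, and no test across mice was possible. Where 3 values of the maps stand together, they follow the order SD 3m, SD 12m, CR 12m. The map is of whole liver, where fewer cells that carry a mark and less of the mark per cell cannot be told apart. SD 3m serves as the reference of both 12-month groups, so an error in its map counts in both comparisons.

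Sirtuins are NAD-dependent deacylases that remove acetyl and other acyl groups from lysines of histones and metabolic enzymes, and their activity ties chromatin and metabolism to nutrient supply. Nampt is the rate-limiting enzyme of NAD salvage from nicotinamide, Nmnat1 makes NAD in the nucleus, and Parp1 consumes NAD when it builds poly(ADP-ribose) at damaged DNA. In the liver, Sirt1 and the mitochondrial Sirt3 are known for their part in the response to fasting and caloric restriction.

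Each bin carries 1 of 8 states. State 1 (active TSS) holds H3K4me3 and H3K27ac, and state 2 (flanking TSS) holds H3K4me1 as well. States 3 to 5 are enhancer-like, with H3K27ac and H3K4me1 in state 3 (active enhancer 1), H3K27ac without H3K4me1 in state 4 (active enhancer 2) and mainly H3K4me1 in state 5 (poised enhancer). State 6 holds H3K27me3 (repressed Polycomb), state 7 weak H3K4me3 and a minimal signal of H3K27me3, and state 8 none of the 4 marks (quiescent). In the whole genome, state 2 covered 1.13%, 0.425% and 0.361% of the bins, and state 5 covered 5.40%, 2.70% and 2.39%. The numbers of merged libraries differed between groups for H3K4me3 (7, 8 and 5), H3K27ac (8, 7 and 9) and H3K4me1 (8, 6 and 9), the read depth behind the maps is unknown, and the part of either in the differences below was not tested. All 6 hepatocyte marker genes examined had their TSS bin in states 1 to 5 in each group, whereas Neurod1 and Pax6, which are silent in liver, were in state 6 in each group. Of the 4 silent genes examined, the others were Myod1, in states 8, 6 and 8, and Gfap, in states 8, 6 and 4. Of the markers of other liver cells, 3, 2 and 2 of 4 for Kupffer cells and macrophages, 3, 2 and 3 of 3 for endothelial cells, and 1, 2 and 2 of 3 for cholangiocytes had their TSS bin in states 1 to 5. None of the 3 stellate cell or 2 lymphocyte markers did in any group.

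All 10 genes had their TSS bin in a promoter state in young liver. The TSS bin of 8 genes was in state 1 at 3 months, and that of Sirt4 and Sirt7 in state 2. None of the 10 had its TSS bin in states 5 to 8 in any group. Of all genes, 30.2% had their TSS bin in state 1 at that age and 9.86% in state 2. The TSS bin of 6 genes was in state 1 in all 3 maps: Sirt2, Sirt3, Sirt5, Sirt6, Nmnat1 and Parp1. With another transcript Nmnat1 would not be among them, as given below. Sirt4 was in state 2 in all 3 maps. Of all genes in state 1 in SD 3m, 16.2% were in another state in SD 12m and 26.4% in CR 12m.

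Sirt1, Sirt7 and Nampt were the genes whose TSS bin changed state between maps. The TSS bin of Sirt1 was in state 1 at 3 months and in state 4 in both 12-month groups. That of Nampt was in state 1 on standard diet at both ages and in state 4 under caloric restriction. That of Sirt7 was in state 2 on standard diet at both ages and in state 3 under caloric restriction. States 3 and 4 differ from states 1 and 2 by the lack of H3K4me3, so at all 3 genes the state without this mark was found at 12 months, and at Nampt and Sirt7 in the restricted group alone. None of the 3 bins was in a Polycomb or quiescent state.

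The sequence before these 3 start sites is shown because it is the DNA of the promoters whose TSS bin differed. It was read from the RefSeq promoter table (GRCm38.p6, the assembly of mm10), runs 5′ to 3′ in the gene's direction and ends at the base before the TSS: chr10:63339036-63339285 (minus strand, 250 bases), chr11:120625015-120625116 (minus strand, 102 bases, up to the last exon of Mafg) and chr12:32820085-32820334 (plus strand, 250 bases). Capitals mark matches of the searched motifs, here the GC box GGGCGG, the E-box CACGTG and the NRF1 core GCGCATGC, on either strand.
Sirt1: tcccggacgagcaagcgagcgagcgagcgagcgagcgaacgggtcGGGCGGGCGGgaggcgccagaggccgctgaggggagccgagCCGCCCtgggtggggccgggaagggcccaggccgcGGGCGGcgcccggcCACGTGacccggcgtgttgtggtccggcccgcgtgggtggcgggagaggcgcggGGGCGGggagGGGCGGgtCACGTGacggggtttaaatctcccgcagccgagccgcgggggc
Sirt7: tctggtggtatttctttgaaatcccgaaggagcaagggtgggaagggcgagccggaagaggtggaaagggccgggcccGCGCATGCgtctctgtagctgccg
Nampt: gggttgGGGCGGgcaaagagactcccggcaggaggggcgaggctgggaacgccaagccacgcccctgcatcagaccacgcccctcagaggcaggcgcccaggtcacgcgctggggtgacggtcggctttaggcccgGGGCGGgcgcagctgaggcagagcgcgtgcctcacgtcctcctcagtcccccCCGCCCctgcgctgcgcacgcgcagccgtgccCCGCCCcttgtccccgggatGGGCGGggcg

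The promoters of Sirt1 and Nampt were the richest in CpG among the 10. Over the 300 bases from 250 before to 50 after the start, Sirt1 held 47 CpG dinucleotides at a GC content of 79%, and Nampt 36 at 76.3%. The other 8 held 15 (Sirt4 and Sirt5) to 28 (Nmnat1), where the median of all 32851 promoters was 7 CpG and 52.7% GC. The window of Sirt4 starts from a site 187 bp downstream of the TSS used for its states. Sirt7, the third gene whose TSS bin differed, had 17 CpG, among the values of genes whose bin did not differ.

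Of 8 motifs searched, the GC box was found most often, in 7 of the 10 promoters and in 35.7% of all promoters. Sirt1 held 7 copies, of which the pair furthest upstream overlap, and Nampt held 5. The E-box, a palindrome read on both strands at once, was found in Sirt1 (2 copies) and Parp1 (1 copy) and in 7.15% of all promoters. The ETS motif CCGGAAGT was found in Sirt3, Sirt6 and Nmnat1 (3.89% of all promoters), and the NRF1 core in Sirt6 and Sirt7 (2.71%). In Sirt6 the 2 matches of the NRF1 core overlap. CCAAT was found in Sirt2, Sirt5 and Nmnat1 (37.4%). No match was found in these windows for TATAAA (13.6% of all promoters), TGACGTCA (1.79%) or TGTTTAC (3.65%). A match describes letters and was not tested as a binding site.

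Counted over the 10 genes, 1 TSS bin differed in state between SD 12m and SD 3m (10%, exact 95% interval 0.253 to 44.5%). With the transcript of the longest spliced length the count was 2, since the TSS bin of Nmnat1 was then in state 2 in SD 3m and in state 1 in SD 12m. The same was found for 32.6% of all genes, and for 26.7% of the genes in state 1 or 2 in SD 3m. Between CR 12m and SD 3m, 3 TSS bins differed (30%, 6.67 to 65.2%), compared to 34.7% of all genes and 35.7% of those in state 1 or 2 in SD 3m. Between CR 12m and SD 12m, 2 differed (20%, 2.52 to 55.6%), compared to 26.7% of all genes and 25.7% of those in state 1 or 2 in SD 12m. Each interval, which covers counting error only, includes its background, so the counts do not set these genes apart from other genes.

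**Figure D1:**
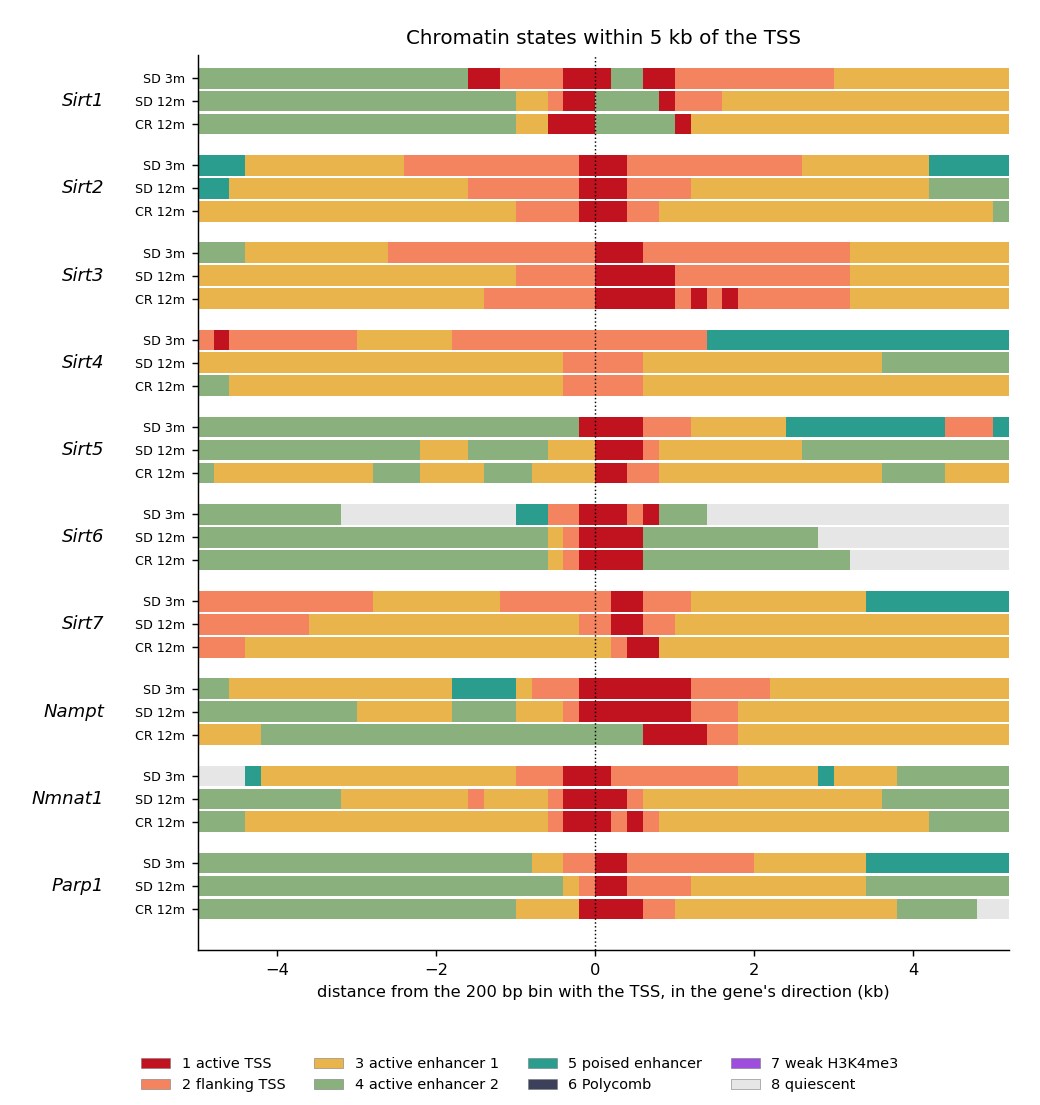
Chromatin states within 5 kb of the TSS of each gene in SD 3m, SD 12m and CR 12m, with the distance from the bin that holds the TSS (0 to 0.2 kb) on the horizontal axis in kb. The red and orange stretch of states 1 and 2 around the start is shorter at 12 months in all 10 genes. The share of all genes with a shorter stretch was not counted. In Nampt and Sirt7 the stretch begins downstream of the TSS bin in CR 12m.

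The difference shared by all 10 genes lay around the TSS bin. Within 2 kb of the TSS, all 10 genes had fewer bins of state 2 at 12 months on standard diet than at 3 months, as did 93.7% of all genes with such a bin in SD 3m. All 10 also had fewer in CR 12m than in SD 3m, compared to 94% of all genes, so the members did what nearly every gene did. Summed over the 10 genes, state 2 took 107, 49 and 33 of 210 bins, whereas state 1 took 35, 33 and 34. The totals of state 1 are not all the same bins: of its 35 bins at 3 months, SD 12m had 29 in state 1 and CR 12m had 22. Of the 107 bins of state 2 at 3 months, SD 12m had 54 in state 3 and CR 12m had 60, the state that lacks H3K4me3 but keeps H3K27ac and H3K4me1. Between the 12-month groups, CR 12m had fewer bins in state 2 at 5 genes, the same number at 4 and more at 1, with fewer at 53.4% of all genes with such a bin in SD 12m.

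The unbroken run of states 1 or 2 at the TSS gives the same change as a length. At 3 months the run was longest at the mitochondrial deacetylase Sirt3 (5800 bp), followed by Sirt2 (5000 bp), Sirt4 (3200 bp), Nampt (3000 bp), Nmnat1 (2800 bp), Parp1 and Sirt7 (2400 bp each), Sirt1 (1800 bp), and Sirt5 and Sirt6 (1400 bp each). Each run was shorter in both 12-month groups. The share of all genes with a shorter run was not counted. Its median over the 10 genes was 2600, 1200 and 1100 bp. Over the 10449 genes whose TSS bin was in state 1 or 2 in SD 3m, the medians were 3200, 1800 and 1600 bp, and the quartiles were 2200 to 4600, 1200 to 2400 and 1000 to 2200 bp. The medians of the 10 genes lay within the quartiles of those genes at 3 months and under restriction and at the lower quartile in SD 12m.

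**Figure D2:**
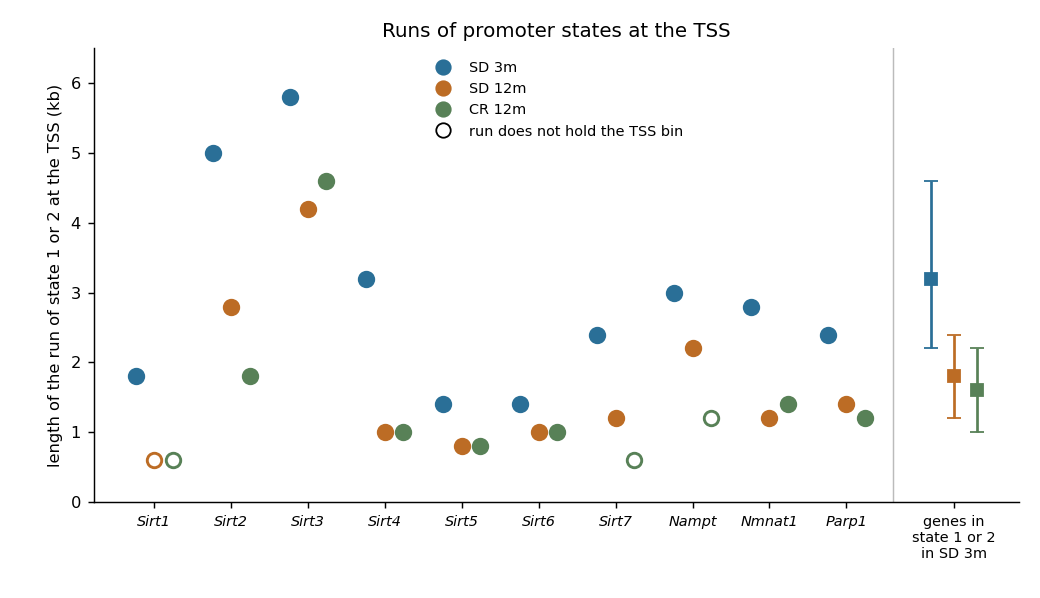
Length in kb of the unbroken run of states 1 or 2 nearest to the TSS, for each gene in SD 3m (blue), SD 12m (brown) and CR 12m (green), with open circles where the run does not hold the TSS bin. Squares with bars give the median and quartiles of the 10449 genes with the TSS bin in state 1 or 2 in SD 3m. In each of the 10 genes the blue point is the highest, and the blue square is the highest square.

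Of the nuclear sirtuins, Sirt1 (chr10:63319005-63339035, minus strand) deacetylates histones and transcription factors. Its TSS lies at the edge of a state 1 stretch. At 3 months that stretch ran from 0.4 kb before the TSS bin to its end and was followed by a gap of state 4 of 0.4 kb inside the first exon, then by state 1 again. The gap was 0.8 kb long in SD 12m and 1 kb in CR 12m, and in both it took in the TSS bin. Within 2 kb of the TSS, states 1 or 2 took 17, 7 and 4 of 21 bins, and no bin was in state 2 in CR 12m. The body of Sirt1 was in state 4 in 65.3%, 64.4% and 70.3% of its bins, and 76.2% of the bins had the same state in all 3 maps. Its flanks had another state than at 3 months in 19.6% (SD 12m) and 18% (CR 12m) of the bins, among the lowest values of the 10 genes.

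Sirt6 (chr10:81621787-81627566, minus strand) is a deacylase of chromatin that acts in DNA repair and glucose metabolism. The TSS bin and the bins beside it were in state 1 in all 3 maps, but the state differed in 14 of the 21 bins within 2 kb (66.7%) in both 12-month groups. Of the 21 bins, 9 were quiescent at 3 months and none at 12 months in either group, and state 4 took 3, 15 and 15. SD 12m and CR 12m were identical in all 21 bins. The TSS of Ankrd24 lies 974 bp upstream on the other strand and was in state 5 at 3 months and in state 4 in both 12-month groups. The body of Sirt6 was quiescent in 23, 16 and 14 of 30 bins.

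Sirt7 (chr11:120618371-120625014, minus strand) is the sirtuin of the nucleolus. Its run of promoter states was 2400, 1200 and 600 bp long, and under restriction it lay from 0.2 to 0.8 kb after the start of the TSS bin. State 1 was never in the TSS bin itself but in bins after it. The TSS of the microRNA gene Mir6936, 138 bp downstream on the same strand, lay in a bin of states 1, 1 and 2. In CR 12m the state 1 stretch was as long as before (0.4 kb) and began at 0.4 kb instead of 0.2 kb. The body was in state 3 in 17, 30 and 32 of 35 bins, and it had 12 bins of state 5 at 3 months and none at 12 months.

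Sirt2 (chr7:28766752-28788665, plus strand), the mainly cytosolic tubulin deacetylase, shares a promoter with Nfkbib, which starts 108 bp away on the other strand. The core of 3 bins in state 1 was the same in all 3 maps. Around it, the run of promoter states was shorter on both sides, at 5000, 2800 and 1800 bp, and state 3 lay where state 2 had been. In the body, state 5 took 39, 2 and 0 of 111 bins.

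Sirt3, Sirt4 and Sirt5 encode the mitochondrial sirtuins. Sirt3 (chr7:140863663-140882309, minus strand), the main deacetylase of mitochondrial proteins, had another state than at 3 months in 33.3% of the bins within 2 kb in both 12-month groups. Its run of promoter states was 5800, 4200 and 4600 bp long, its downstream edge at 3.2 kb was the same in all 3 maps, and state 1 took 3, 5 and 7 of the 21 bins within 2 kb. It was the only one of the 10 genes with more bins in state 1 or 2 around the TSS in CR 12m than in SD 12m (18 compared to 16). The TSS of Psmd13, a proteasome subunit, lies 85 bp away on the other strand. It falls in the same 200 bp bin as that of Sirt3, so the 2 genes share 1 reading. In the body of Sirt3, 79.8% of the 94 bins had the same state in all 3 maps.

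Sirt4 (chr5:115478010-115484484, minus strand), an ADP-ribosyltransferase and deacylase that acts on glutamate dehydrogenase, was the gene whose body differed most from SD 3m. It had no bin in state 1 within 2 kb of the TSS in any map. State 2 took 16, 5 and 5 of these 21 bins, and state 3 took 1, 16 and 16. In all, 71.4% of the bins within 2 kb and 84.8% of the 33 bins of the body differed from SD 3m in each of the 12-month groups, where the upper quartiles of the genes in state 1 or 2 in SD 3m were 52.4% and 41.2% for SD 12m and 57.1% and 47.5% for CR 12m. In the body, state 5 took 24, 0 and 0 bins, state 3 took 2, 19 and 27, and state 4 took 0, 11 and 3. Around the TSS, SD 12m and CR 12m were identical in all 21 bins.

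Sirt5 (chr13:43365535-43395203, plus strand) removes succinyl and malonyl groups from mitochondrial enzymes. Its run of promoter states was 1400 bp long at 3 months and 800 bp in both 12-month groups. In the body, state 4 took 11, 70 and 53 of 150 bins, while state 5 took 28, 0 and 0 bins and state 8 took 90, 67 and 66. At 3 months a stretch of 1.2 kb at the 3′ end of the gene was in state 1 (chr13:43394001-43395200), and at 12 months none of its bins was in state 1.

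Among the NAD genes, Nampt (chr12:32820335-32853369, plus strand) stood out for the difference between the 12-month groups. Within 2 kb of its TSS, 47.6% of the bins differed between CR 12m and SD 12m, the highest value of the 10 genes, where the upper quartile of the genes in state 1 or 2 in SD 3m was 33.3%. On standard diet at both ages, state 1 covered the 1.4 kb from 0.2 kb before the TSS bin to 1.2 kb after its start. Under restriction state 4 reached from 4.2 kb before the start of the TSS bin to 0.6 kb after it, and state 1 took the 0.8 kb that followed. The run of promoter states was 3000, 2200 and 1200 bp long.

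The body of Nampt differed less from SD 3m in CR 12m than in SD 12m. It had another state than at 3 months in 31.3% of its 166 bins in SD 12m and in 16.9% in CR 12m. Of its bins, 11, 24 and 0 were quiescent, and the whole body was in states 1 to 4 in CR 12m. In its flanks, 117, 284 and 145 of 500 bins were quiescent, and a stretch of 7.4 kb after the gene that was in state 6 at 3 months (chr12:32859401-32866800) had no bin in state 6 at 12 months. Between the 12-month groups, 45.2% of its flanking bins were in another state, where the other 9 genes ranged from 14.2% (Nmnat1) to 29.4% (Parp1).

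Nmnat1 (chr4:149467569-149485210, minus strand) starts 19 bp from Lzic on the other strand. Both TSS lie in 1 and the same bin, which was in state 1 in all maps. The run of promoter states was 2800, 1200 and 1400 bp long. Its body was quiescent in 62, 50 and 24 of 90 bins and in state 4 in 9, 22 and 45. Its longest single change between CR 12m and SD 12m was 5.2 kb from state 8 to state 4 in the body (chr4:149472201-149477400), which holds exons 2 and 3 and parts of the introns beside them. Its longest change from SD 3m was also from state 8 to state 4, over 9 kb at Lzic (chr4:149489801-149498800), and was found in both 12-month groups.

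Parp1 (chr1:180568891-180600999, plus strand) had a run of promoter states of 2400, 1400 and 1200 bp. Its body was mostly quiescent in all maps, with 125, 131 and 137 of 161 bins in state 8, and 82.6% of the bins were the same in all 3. Parp1 had more quiescent bins at 12 months, whereas Sirt5, Sirt6 and Nmnat1 had fewer in both 12-month groups.

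Taking the windows of all 10 genes as a whole, 43.3% of the 210 bins within 2 kb of the TSS differed between SD 12m and SD 3m, 55.7% between CR 12m and SD 3m, and 20% between CR 12m and SD 12m. Over the genes in state 1 or 2 in SD 3m these shares were 39.0%, 44.9% and 24.7% in the same order of comparisons. In the bodies (971 bins) the shares were 30.6%, 32.9% and 15.2%, compared to 24.7%, 27.8% and 18.4%. Neighbouring bins are not independent, and the values are given as a description. Single genes ranged widely within these sums, for instance from 28.6% (Sirt7) to 71.4% (Sirt4) within 2 kb of the TSS in SD 12m.

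**Figure D3:**
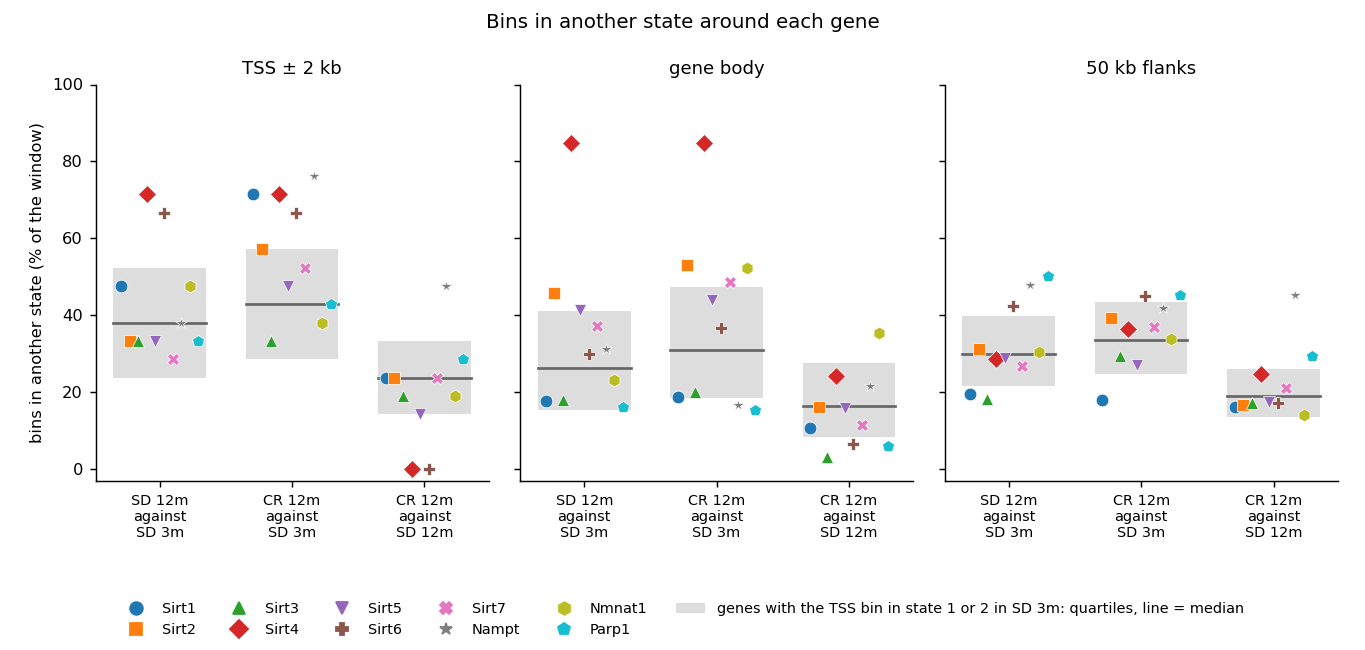
Percent of bins in another state for each of the 10 genes, within 2 kb of the TSS, in the gene body and in the 50 kb flanks, for the 3 comparisons. Grey boxes give the quartiles and the median of the 10449 genes with the TSS bin in state 1 or 2 in SD 3m. Each box ends at the upper quartile, so part of the reference genes lies above it by definition. Several of the 10 genes have points above the boxes. Among them are Sirt4 (71.4% at the TSS and 84.8% in the body in SD 12m) and Sirt6 (66.7% at the TSS in SD 12m). Nampt is another (at the TSS, 47.6% in CR 12m against SD 12m and 76.2% in CR 12m against SD 3m). Sirt1 lay above its box too (at the TSS, 71.4% in CR 12m against SD 3m).

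No bin of any of the 10 bodies was in state 6 or 7 in any map. Over the genes in state 1 or 2 in SD 3m, state 6 took 1.36%, 0.756% and 0.731% of the body bins. State 7 took 1.36%, 1.77% and 1.31% of them, so both states were rare there too. A state label does not give the level of a mark. The poised enhancer state 5 took 13.1%, 0.927% and 0% of the 971 bins. Over the genes in state 1 or 2 in SD 3m it took 11.7%, 8.01% and 6.73%, pooled over bins, so that long genes weigh more. In the 50 kb flanks of the 10 genes, state 5 took 8.26%, 2.54% and 0.98%. In the flanks of the genes in state 1 or 2 in SD 3m, it took 9.40%, 2.97% and 2.22%, so a lower share at 12 months was not particular to the members. Of the 127 bins of state 5 in the 10 bodies at 3 months, SD 12m had 51 in state 3 and 74 in state 4, both of which hold H3K27ac. In CR 12m, 82 were in state 3 and 42 in state 4. Over all 10 bodies, states 3 to 5 together took 57.3%, 64.3% and 70.1%, and state 8 took 32.0%, 29.7% and 24.8%. Over the genes in state 1 or 2 in SD 3m, states 3 to 5 took 60.4%, 62.5% and 64.6%, and state 8 took 30.5%, 31.4% and 30.2%. The bodies of Sirt1, Sirt2, Sirt3, Sirt4 and Sirt7 had no quiescent bin in any map, and the share of all genes without one was not counted.

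**Figure D4:**
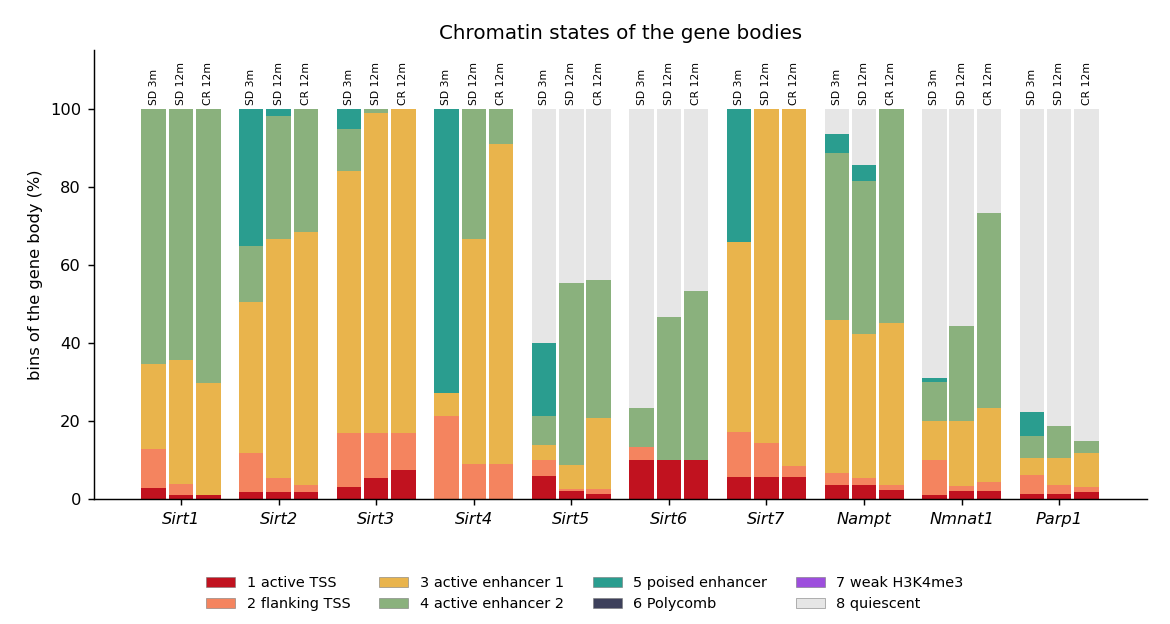
Percent of the bins of each gene body in each of the 8 states in SD 3m, SD 12m and CR 12m. The blue-green part, state 5, sums to 127, 9 and 0 bins, and the pale grey quiescent part of Nmnat1 is smallest in CR 12m.

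In the 50 kb flanks, 32.4% of the 5000 bins differed between SD 12m and SD 3m, 35.4% between CR 12m and SD 3m, and 22.0% between CR 12m and SD 12m, compared to 31.3%, 34.6% and 20.7% for the genes in state 1 or 2 in SD 3m. State 6 was found beside 4 of the 10 genes, and the share of all genes with state 6 in their flanks was not counted. State 6 took 257, 44 and 152 bins, or 5.14%, 0.88% and 3.04% of the total. Its share was 13.6%, 13.8% and 11.6% in the flanks of all genes, and 10.7%, 7.39% and 6.82% in those of genes in state 1 or 2 in SD 3m. H3K27me3, the mark of state 6, was profiled in 7, 8 and 6 libraries, and the part of depth in these shares was not tested.

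The state 6 bins lay at few places. Upstream of Parp1, state 6 covered the outermost 18.8 kb, 2.2 kb and 10.8 kb of the flank. Over 16.6 kb in state 6 at 3 months (chr1:180521001-180537600) the state was 8 in SD 12m, the longest single change around the 10 genes, and 51.8% of these bins were in state 6 under restriction. Downstream of Parp1, state 6 took 47, 0 and 0 bins, and 8.6 kb of it (chr1:180626801-180635400) were quiescent in both 12-month groups. Downstream of Sirt4, state 6 took 56, 10 and 98 bins. Over 8.8 kb that overlap Msi1 (chr5:115452001-115460800), a neural RNA-binding protein gene, the bins were in state 6 at 3 months and in state 8 in SD 12m, and 61.4% of them were quiescent under restriction too. Over 10.8 kb that overlap Pla2g1b (chr5:115457401-115468200), a pancreatic phospholipase gene, they were in state 8 in SD 12m and in state 6 under restriction, and 68.5% of them were already quiescent at 3 months. At Sirt6, state 6 was found in SD 12m alone, over 4.6 kb after the gene that lay mostly in state 7 at 3 months.

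Elsewhere the longest stretches differed between the quiescent state and state 4. Upstream of Sirt2, 6.6 kb over Ccer2 and Nfkbib were quiescent at 3 months and in state 4 under restriction (chr7:28754001-28760600), and 57.6% of these bins were in state 4 in SD 12m. Downstream of Sirt6, 6.4 kb over Tle2 and Tle6 (chr10:81585801-81592200) were quiescent at 3 months and in state 4 in both 12-month groups. At Sirt5, 6.4 kb before the gene (chr13:43323601-43330000) were quiescent at 3 months and in state 4 in SD 12m, and 62.5% of them were quiescent under restriction. The longest changes beside Sirt3 and Sirt7 stayed among states 2 to 5, such as 5 kb at Psmd13 (chr7:140893001-140898000), in state 4 on standard diet at both ages and in state 3 under restriction.

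**Figure D5:**
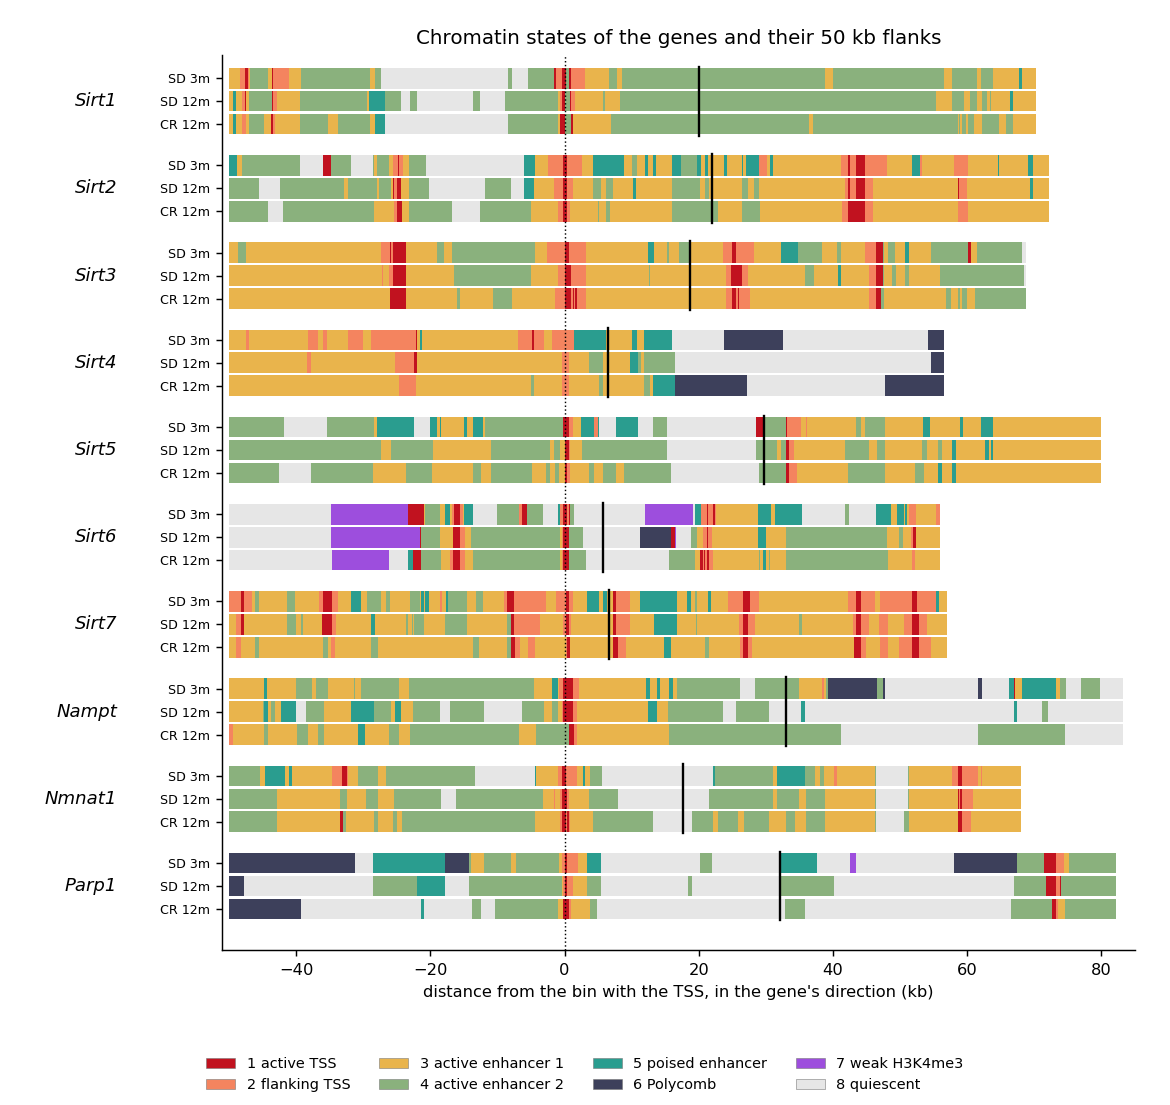
Chromatin states from 50 kb before to 50 kb after each gene in SD 3m, SD 12m and CR 12m, with the distance from the TSS bin in kb on the horizontal axis, the dotted line at its start and black lines at the gene ends. State 6 (dark blue) is seen beside Sirt4, Sirt6, Nampt and Parp1 and in no gene body, and the 31.2 kb quiescent stretch after Nampt in SD 12m is in part in state 4 in CR 12m.

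The other genes of the pathway were read in the TSS bin alone, in 4 lists of 48 genes. Of all genes, 32.6% differed there between SD 12m and SD 3m, 34.7% between CR 12m and SD 3m, and 26.7% between CR 12m and SD 12m. In the NAD salvage and synthesis list, 4 of 13 genes differed between SD 12m and SD 3m, 7 between CR 12m and SD 3m, and 4 between CR 12m and SD 12m. The exact 95% interval of the 7 was 25.1 to 80.8%, which includes the share of all genes. Naprt, which starts NAD synthesis from nicotinic acid, was in states 2, 1 and 3. The NAD kinase gene Nadk was in states 2, 3 and 3. Nmrk2, a nicotinamide riboside kinase gene, was in states 6, 4 and 4, and the transporter gene Slc12a8 in states 5, 4 and 4. Nadsyn1 (state 1), the NAD synthetase gene, and Qprt (state 3), which joins the tryptophan route to NAD synthesis, were the same in all maps. Chosen after their values were seen, because they make up the difference between the 12-month groups with Naprt, are Nmrk1 (states 2, 2 and 1), Pnp (1, 1 and 4) and Nt5e (4, 4 and 1).

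In the de novo route from tryptophan, 4 of 8 genes differed between SD 12m and SD 3m, 2 between CR 12m and SD 3m, and 5 between CR 12m and SD 12m. The exact 95% interval of the 5 was 24.5 to 91.5%, which includes the 26.7% of all genes. Tdo2, the liver enzyme that opens the route, was in states 2, 2 and 1. Kmo, the kynurenine hydroxylase gene, was in states 3, 2 and 1, and Haao was in state 1 in all maps. The other genes that differed, named after their values were seen, were Ido2 (states 1, 4 and 1), Kynu (3, 2 and 3) and Acmsd (2, 3 and 2), each in the same state in SD 3m and CR 12m.

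Among other consumers of NAD and genes that clear nicotinamide, 6 of 13 differed between SD 12m and SD 3m, 6 between CR 12m and SD 3m, and 2 between CR 12m and SD 12m. The exact 95% interval of 6 of 13 was 19.2 to 74.9%, which includes the 32.6% and 34.7% of all genes. Cd38, an NAD glycohydrolase gene, and Parp14 were in state 2 at 3 months and in state 1 in both 12-month groups, and Parp10 was in states 2, 3 and 3. Bst1, a relative of Cd38, was in states 5, 4 and 4, and Sarm1, an NAD-cleaving enzyme known from neurons, in states 5, 3 and 3. Nnmt, which methylates nicotinamide and is abundant in liver, was in state 3 in all maps. The 2 genes that differed between the 12-month groups, named after their values were seen, were Parp3 (states 2, 1 and 2) and Parp4 (1, 1 and 2).

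Of the 14 regulators and targets of sirtuins, 3 differed between CR 12m and SD 3m. These 3, named after their values were seen, were the coactivator gene Ppargc1a (states 8, 8 and 4) and the acetyl-CoA synthetase genes Acss1 (1, 1 and 5) and Acss2 (1, 1 and 2). Ppargc1a was read at the start of its transcript with the longest span, which is non-coding. Other starts of Ppargc1a were not read. Ccar2, which inhibits Sirt1, was in state 1 in all maps. Over the 48 genes, 15 (31.3%), 18 (37.5%) and 15 (31.3%) differed in the 3 comparisons, where the shares of all genes were 32.6%, 34.7% and 26.7%.

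Likeness was counted as the bins in which a pair of genes had the same state, over the 21 bins within 2 kb of the TSS in each of the 3 maps (63 bins). By this count, the gene most like a member was Fam149b for Sirt2 (59 bins), Rab11b for Sirt7 (57), Rbm39 for Sirt3 (56, with 1 tie), Mtmr11 for Sirt4 (56), Jmjd4 for Nmnat1 (55) and Ipp for Parp1 (55, with 1 tie). For Sirt5 it was Pla2g12b (50), for Sirt6 Zfp248 (48), for Nampt Foxn2 (48) and for Sirt1 Tmem65 (44, with 1 tie). Among the members themselves, Sirt4 and Sirt7 shared most (43 of 63 bins), and Sirt4 and Sirt6 least (7).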

How the data were processed

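ChIP-seq of 4 histone marks in formalin-fixed, paraffin-embedded liver was analysed from the deposited state labels. The authors aligned the reads to mm10 (BWA 0.6.2-r126 and SAMtools 0.1.18, per the submitters' processing notes), filtered them for mapping quality and duplicates, merged the libraries of each group and mark, binarized 200 bp bins and trained 1 ChromHMM model with 8 states. The deposited value is thus a category, without a read count, and each group has 1 map. Maps were assigned to groups by the group in their names.

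TSS and ends came from the curated RefSeq transcript with the longest span in GRCm38.p6, whose 20 chromosome lengths match those of the maps. A bin counted as changed when its labels differed, without a filter. Exact and Wilson 95% intervals cover counting error only. Python 3.11.15, numpy 2.4.6, scipy 1.17.1 and matplotlib 3.10.9 were used, and the functions were tested on simulated maps. The genes described were all 10 members, the list genes whose TSS bin differed from SD 3m in both 12-month groups with 8 genes of key steps, neighbours within 2 kb, and the most similar gene. Another 11 list genes were named after their values were seen. The members and lists were chosen with earlier results of these data known. Alternatives changed the states, the transcript, the smoothing, the windows and the background. A result of the list of regulators and targets is not reported here.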

Additional observations from a re-analysis of the deposited data

How the results depend on the processing

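No paired analysis was possible because each group has 1 map and no result comes from a test. Of 72 values recomputed with another setting, 52 stayed within the Wilson interval of the main value or, for counts of genes, within 1.5 times of it, and no value could change sign. The 52 include all values for the transcript with the farthest upstream start. Each of these was identical to the main value, so they say nothing on stability.

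With 5 merged classes, the share of changed bins was lower in each window by construction, in the order SD 12m against SD 3m, CR 12m against SD 3m and CR 12m against SD 12m. It was 33.8%, 40% and 10% within 2 kb of the TSS, 13.8%, 15.6% and 7.72% in the bodies, and 19.96%, 20.4% and 12.5% in the flanks. The same 3 genes differed in the TSS bin with merged classes. With the transcript of the longest spliced length, 2 TSS bins differed between SD 12m and SD 3m in place of 1, the second being Nmnat1 from state 2 to state 1, and 3 in place of 2 between the 12-month groups. Within 1 kb of the TSS, the share was 34.5% in SD 12m against SD 3m and 26.4% between the 12-month groups, and within 5 kb it was 48.2% in CR 12m against SD 3m. Flanks of 25 kb gave 38.8% in CR 12m against SD 3m and 25.4% against SD 12m, and flanks of 100 kb gave 32.4% in CR 12m against SD 3m. With only the genes whose chosen transcript is protein-coding, the share with another state in the TSS bin was 35.4% in CR 12m against SD 3m and 27.2% between the 12-month groups. With genes in state 1 to 5 in SD 3m alone, it was 39.0% and 27.8%.

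The maps hold labels and no reads, so the depth behind a label is unknown, and a bin near the threshold of a mark cannot be told from one far from it. With 10 genes the exact intervals are wide, from 0.253 to 44.5% for 1 gene. Shared promoters, such as that of Nmnat1 and Lzic 19 bp apart, cannot be divided between their genes at 200 bp.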
